A study of Arabidopsis thaliana with 6 samples.

Results

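The ribosomal protein genes described here are those whose titles point to plastids or mitochondria or to a bacterial-type subunit. The rule that chose them uses titles alone and no expression value, but it was set with earlier results of these data known. A probe set was taken where its title in the authors' table holds "ribosomal protein" together with 30S, 50S, chloroplast, plastid or mitochondrial, and neither 40S nor 60S, which mark the cytosolic ribosome. This gave 32 of the 22746 probe sets other than controls, and 32 of the 324 whose titles hold "ribosomal protein". By title 19 of the 32 belong to plastids and 7 to mitochondria, and 6 titles give a bacterial-type subunit with no compartment. Small-subunit proteins make up 17 of the members and large-subunit proteins 13, and the titles of the remaining 2 do not settle the subunit. A single gene could be assigned to 17 members, and 1 member, S12, matches several genes.

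Organelles keep ribosomes of bacterial type. Most of their proteins are encoded in the nucleus, made in the cytosol and imported, while some proteins and the rRNAs are encoded in the organelle itself. Plastid ribosomes translate the plastid's own messages, among them core subunits of the photosystems and of Rubisco, and mitochondrial ribosomes translate subunits of the respiratory chain.

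RNA came from whole seeds of Arabidopsis thaliana, ecotype Columbia-0, on 6 Affymetrix arrays. The wild-type group (3 arrays) and the mads-box mutant group, agl67 (3 arrays), were handled alike: 3 days in water at 4 °C in darkness, then 3 hours in light at 22 °C with 5 µM abscisic acid (ABA), a hormone that keeps seeds from germinating. Neither the agl67 allele nor the number of mutant lines is given in the sources used here, and the seeds of a sample were extracted together. The labels call the samples biological replicates without saying what separates them, so p-values measure the spread between these samples.

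Each value is the authors' log2 expression level of 1 probe set on 1 array. AGL67 (AT1G77950), the mutated gene, read 8.61 ± 0.31 in wild type and 4.03 ± 0.33 in the mutant (SD, n = 3), a log2 change of -4.57 (limma adjusted p = 0.000887), and p was 0.1 in the exact two-sided permutation test, which cannot give less with 3 arrays in each group. The embryo transcripts CRA1, EM1 and EM6, the 3 of 11 listed seed markers that could be matched, stood at or above percentile 99.7 by level. The median level of an array was 3.97 to 4.00 except for 3.80 on the third array of wild type, which correlated with the other wild-type arrays at 0.980 and 0.983 over all probe sets against 0.994 between those arrays.

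The comparison asks which of these genes differ between mutant and wild-type seeds after 3 hours of ABA. In mutant seeds 6 of the 32 probe sets were higher at an adjusted p under 0.05 in limma, none was lower at that threshold, and 26 did not pass. Across all probe sets 1.93% were called higher and 0.778% lower. The 6 were AT5G24490, titled only as a 30S protein, the plastid proteins S13 (CS13), L4 (CL4), L9 (CL9) and L21 (CL21), and a 30S protein S1, with log2 changes of 0.77 to 1.25. Of the members 30 had a log2 change above 0, against 54.9% of all probe sets, and their median change was 0.36 against 0.02. These figures depend on the scaling. When arrays were centred on their medians 25 members were above 0, with a median of 0.29 against -0.04 over all probe sets. After renewed quantile normalization 24 were above 0, with a median of 0.28 against 0.00. In bulk seeds a change in the cells present and a change in RNA per cell cannot be told apart, and a p-value that misses the threshold does not show that levels were equal. The members are bright, with a median level at percentile 80.4, and 31 of them belong to the brighter 60%. With the dimmest 40% left out before the fit the same 6 passed, and the share of all probe sets called higher was then 3.82%. Of the 31 members in that fit 29 were above 0. Their median was 0.36, against 0.08 over all probe sets kept.

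**Figure D1:**
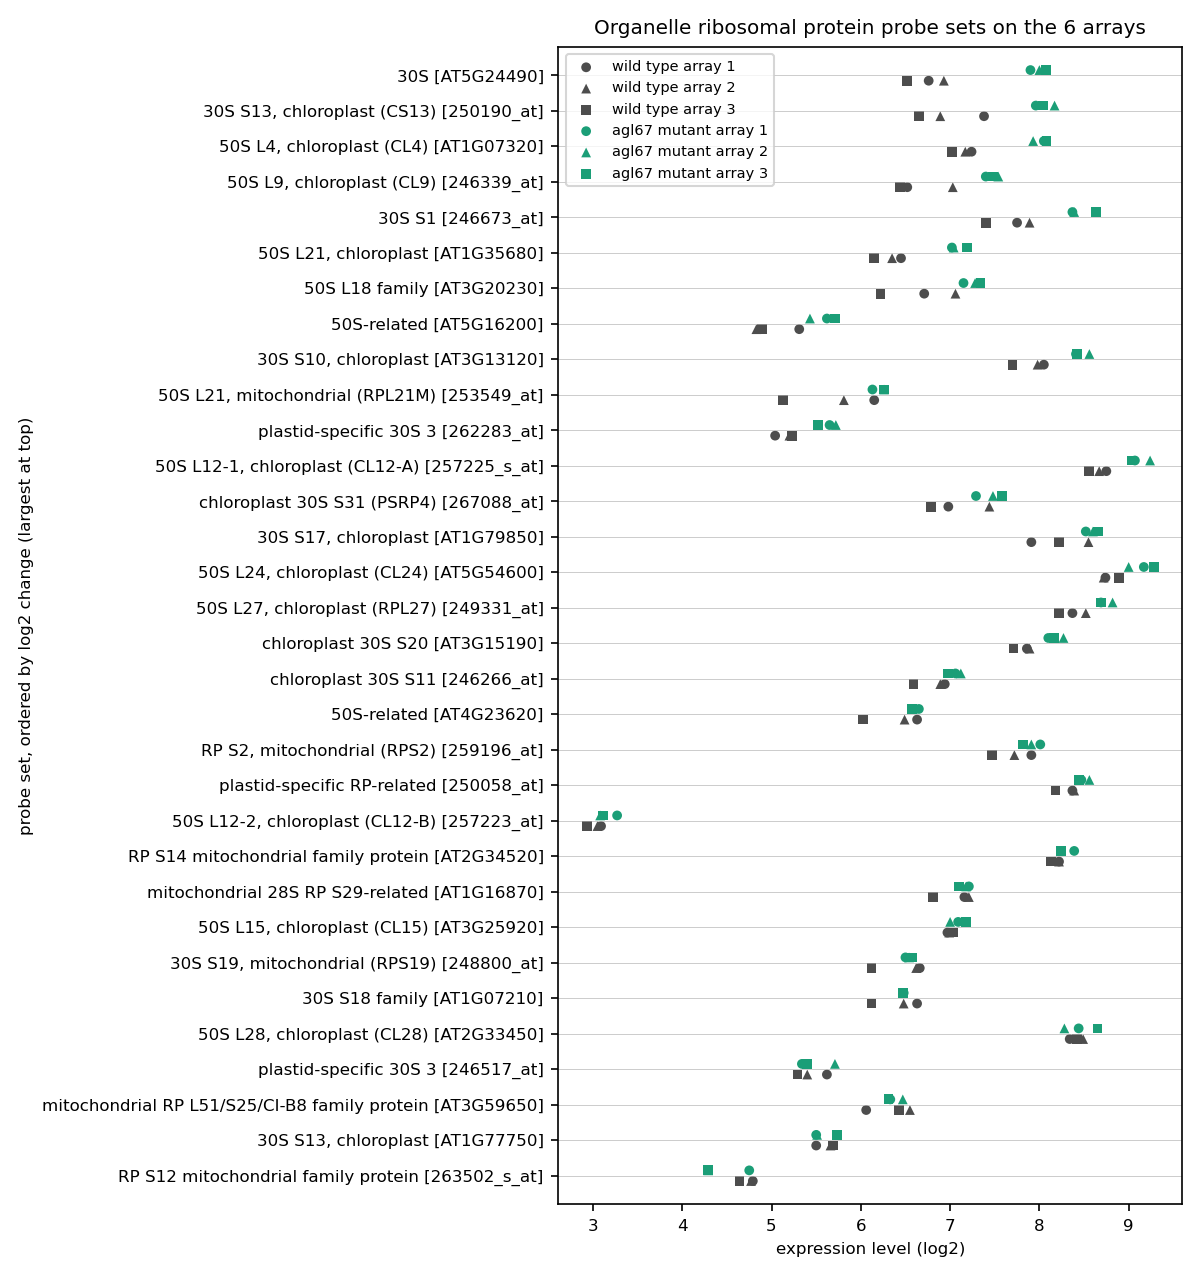
Log2 expression level (horizontal axis) of each of the 32 probe sets (rows, largest log2 change at the top) on the 3 wild-type arrays (grey) and 3 mutant arrays (green), with the array number given by the symbol; brackets hold the gene or, where none was assigned, the probe set. In the 6 topmost rows every mutant array lies to the right of every wild-type array, and the grey square of the third wild-type array is the lowest wild-type value in 24 of the 32 rows.

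Among members with a small-subunit title, AT5G24490 (probe set 249742_at) had the largest change, though its title, a putative 30S protein, does not settle its role. It read 6.76, 6.93 and 6.52 on the wild-type arrays and 7.90, 8.00 and 8.07 on the mutant arrays. The lowest mutant array thus stood 0.96 above the highest wild-type array. Its log2 change was 1.25 (SE 0.13, 95% interval 0.95 to 1.55, adjusted p = 0.0052), a fold of 2.38. It passed in 5 of the 6 fits that leave out 1 array and had an adjusted p of 0.0517 without the third mutant array.

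S13 sits in the head of the small subunit, where in bacteria it contacts transfer RNA. The plastid S13 probe set CS13 (250190_at) read 7.38, 6.89 and 6.65 in wild type and 7.96, 8.17 and 8.04 in the mutant. The groups do not overlap, although the first wild-type array lies nearer to the mutant arrays than the others do. Its log2 change was 1.08 (SE 0.19, 95% interval 0.64 to 1.52, adjusted p = 0.0308). The call was kept when wild-type array 1 or wild-type array 3 was left out and lost in the other 4 of these fits (adjusted p from 0.104 to 0.164).

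S1 binds messenger RNA and helps initiation in Escherichia coli. The 30S protein S1 (246673_at), whose title names no compartment, read 7.75, 7.89 and 7.40 in wild type and 8.37, 8.39 and 8.63 in the mutant. All mutant arrays stood above all wild-type arrays, by at least 0.48. The change was 0.78 (SE 0.15, 95% interval 0.43 to 1.14, adjusted p = 0.0432), and of the fits with 1 array left out it passed in 1, the fit that omits wild-type array 3.

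Of the large-subunit proteins, L4 lines part of the tunnel through which the new chain leaves the bacterial ribosome. Plastid L4 (CL4, AT1G07320) read 7.24, 7.17 and 7.02 in wild type and 8.05, 7.93 and 8.08 in the mutant. Both groups were tight, with SDs of 0.12 and 0.08, and lay 0.69 apart at their nearest values. The log2 change was 0.88 (SE 0.11, 95% interval 0.63 to 1.13, adjusted p = 0.00942), a fold of 1.84. L4 passed in each of the 3 fits without a wild-type array and in none without a mutant array (adjusted p from 0.0547 to 0.0805).

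L21 binds the large-subunit rRNA. Plastid L21 (CL21, AT1G35680) read 6.45, 6.35 and 6.15 in wild type and 7.02, 7.04 and 7.19 in the mutant, so that the groups lay 0.57 apart. It changed by 0.77 (SE 0.12, 95% interval 0.50 to 1.04, adjusted p = 0.0199) and passed only where wild-type array 1 or 3 was omitted. L9 is linked in Escherichia coli to keeping the reading frame. Plastid L9 (CL9, 246339_at) read 6.52, 7.03 and 6.44 in wild type, where the second array stood apart from the others, and 7.40, 7.54 and 7.48 in the mutant. Its change of 0.81 (SE 0.16, 95% interval 0.43 to 1.19) had the largest p-value of the 6 calls, with an adjusted p of 0.0495, and it passed only where wild-type array 2 or 3 was omitted.

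**Figure D2:**
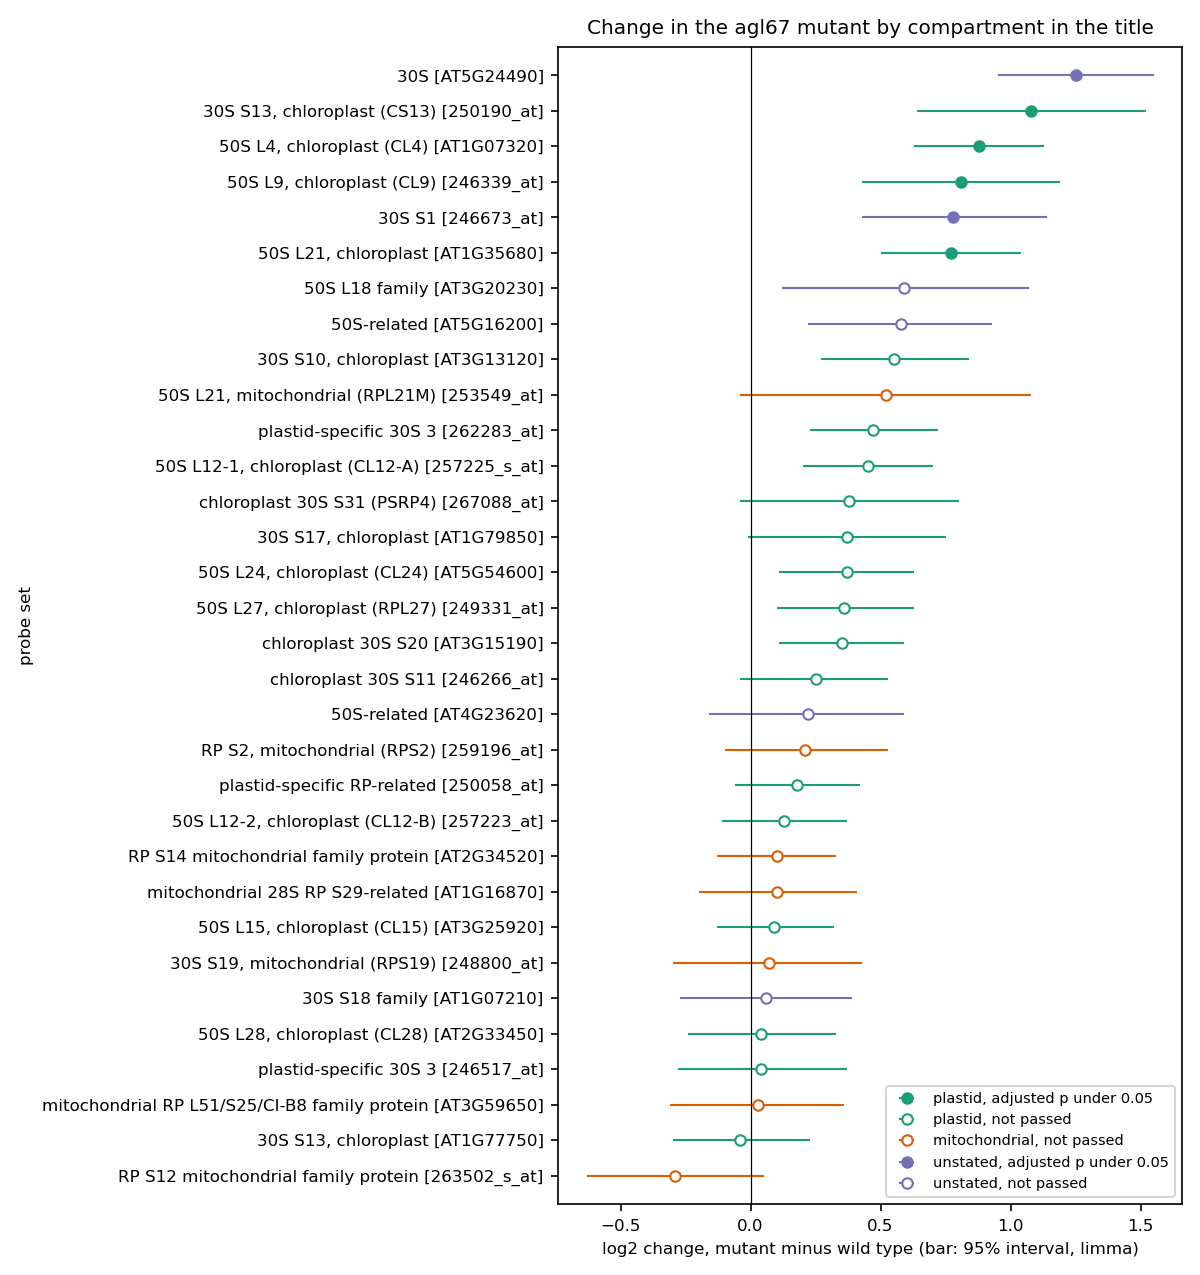
Log2 change, mutant minus wild type (horizontal axis), with its 95% interval from limma for each of the 32 probe sets, coloured by the compartment in the title; filled points passed at an adjusted p under 0.05. The 6 filled points lie between 0.77 and 1.25 and are plastid or unstated by title, and the 7 mitochondrial points lie between -0.29 and 0.52 with intervals that all include 0.

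The calls depended on the arrays used. Leaving out mutant array 1, 2 or 3 left 1, 1 and 0 members called higher, and the shares over all probe sets fell to 0.356%, 0.317% and 0.299%. Without wild-type array 1, 2 or 3 in turn 5, 3 and 8 members were called, at shares of 2.11%, 0.761% and 3.86%. The 8 without the third wild-type array included all 6 above, and plastid S10 and 1 plastid-specific PSRP-3 probe set were added. The median change of the members moved less, from 0.31 to 0.37 in 5 of these fits and to 0.24 without the third wild-type array. The median over all probe sets without that array was -0.01. That array gave the lowest wild-type value in 24 of the 32 members (75.0%), against 56.8% of all probe sets. With array weights, which gave that array the least weight, 11 members were called higher and the share over all probe sets was 4.2%. The members' median was then 0.25, against -0.01 over all probe sets.

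**Figure D3:**
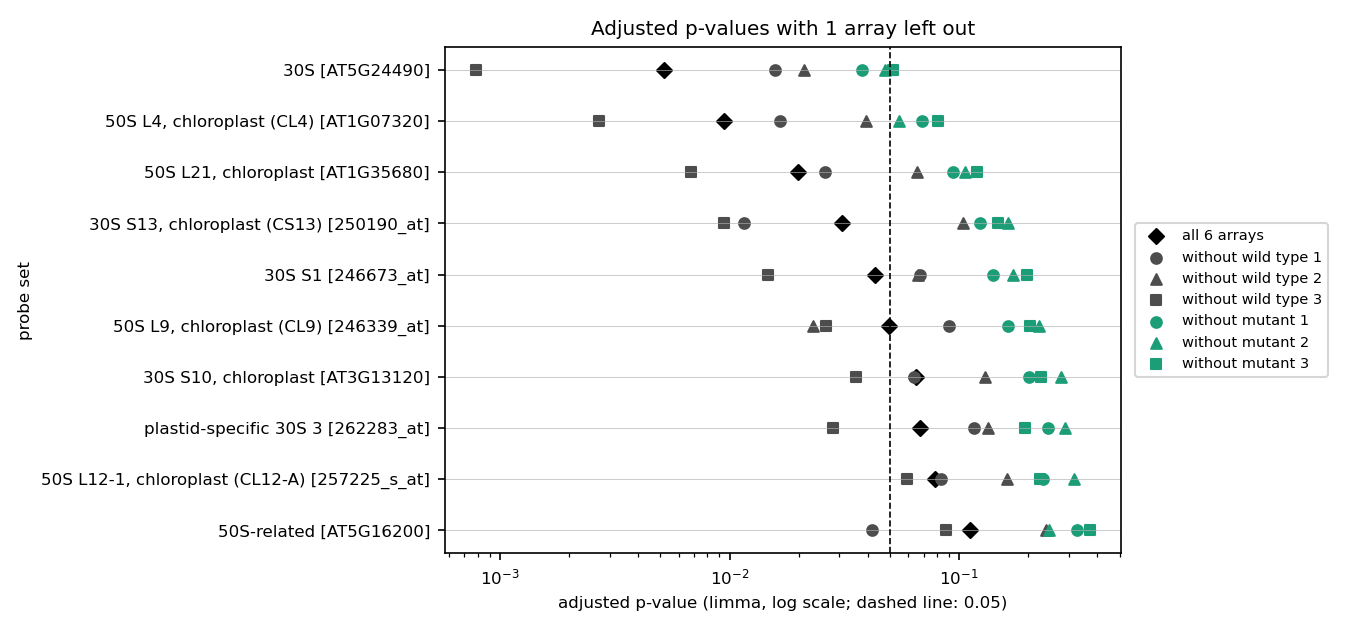
Adjusted p-value (horizontal axis, log scale, dashed line at 0.05) of the 10 members with the smallest p-values, with all 6 arrays (black) and without each wild-type (grey) or mutant (green) array. AT5G24490 alone among them passed without the first and without the second mutant array, and no member passed when mutant array 3 was left out.

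Below the threshold, several further plastid proteins had mutant arrays that all lay above the wild-type arrays. Counting every member, 17 of 32 had such groups, where 14.9% of all probe sets did, and 0 had all mutant arrays below wild type, where 9.16% did. Plastid S10 (AT3G13120), a small-subunit protein whose bacterial counterpart also acts in transcription antitermination, read 8.05, 7.98 and 7.70 in wild type and 8.41, 8.56 and 8.42 in the mutant (log2 change 0.55, adjusted p = 0.065). L12-1 (CL12-A, 257225_s_at) belongs to the stalk that recruits translation factors. It read 8.75, 8.67 and 8.56 in wild type and 9.07, 9.24 and 9.04 in the mutant (0.45, adjusted p = 0.0784). Since that probe set lists its title more than once, it may read more than 1 transcript.

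L24 starts assembly of the large subunit in Escherichia coli, and L27 reaches the site of peptide bond formation in bacteria. Plastid L24 (CL24, AT5G54600), the brightest member with a mean level of 8.97, had a log2 change of 0.37 (95% interval 0.11 to 0.63, adjusted p = 0.159). L27 (249331_at) had one of 0.36 (0.10 to 0.63, adjusted p = 0.167), and plastid S20 (AT3G15190), which binds small-subunit rRNA, one of 0.35 (0.11 to 0.59, adjusted p = 0.14). In each of these 3 the groups did not overlap, by 0.12 to 0.21 at their nearest values. Plastid S11 (246266_at) and the plastid-specific ribosomal protein-related probe set 250058_at were also separated, by 0.04 and 0.05, with changes of 0.25 and 0.18.

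The groups overlapped for plastid S17 (CS17, AT1G79850), which binds small-subunit rRNA. It read 7.91, 8.55 and 8.22 in wild type and 8.52, 8.60 and 8.66 in the mutant, with a change of 0.37 (adjusted p = 0.322). S31 (PSRP4, 267088_at) overlapped as well, with 0.38 (adjusted p = 0.35). Plastid L15 (CL15, AT3G25920) and L28 (CL28, AT2G33450) had changes of 0.09 (95% interval -0.13 to 0.32) and 0.04 (-0.24 to 0.33). Both signs depended on the scaling, L15 reading -0.02 after renewed quantile normalization and L28 -0.03 with arrays centred on their medians. Over all 19 plastid titles 4 were called higher, beside 1.93% of all probe sets, 15 did not pass, and the median change was 0.37. The plastid calls numbered 0 without any 1 of the mutant arrays, and 3, 2 and 6 without wild-type arrays 1, 2 and 3.

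Members that carry the same protein name were compared in 4 pairs. Of the S13 titles, CS13 had a change of 1.08 and AT1G77750, read at 5.50, 5.66 and 5.69 in wild type and 5.50, 5.51 and 5.73 in the mutant, one of -0.04. Their difference in level within an array was 2.30 to 2.67 in the mutant and 0.96 to 1.88 in wild type, a difference between the changes of 1.12. For the pair titled PSRP-3 the changes were 0.47 (262283_at) and 0.04 (246517_at), a difference of 0.43, and for L12-1 against L12-2 they were 0.45 and 0.13, a difference of 0.33. In each of these pairs the groups did not overlap, with p = 0.1 in the exact two-sided permutation test, its smallest possible value, and 0.133 after Benjamini-Hochberg adjustment over the 4 pairs compared. L12-2 (CL12-B) was the dimmest member, with a level of 3.09 at percentile 26.1. Whether it lies above background was not tested, so the L12 values do not show that the pair's transcripts changed unequally. In the pair of plastid and mitochondrial L21 the changes were 0.77 and 0.52, and their difference of 0.25 was not separated from the spread (exact p = 0.4, adjusted 0.4). AT1G77750 and 246517_at were singled out after their values were seen, as were the S29, S18, S19 and L51/S25 titles given below.

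Mitochondrial titles showed smaller changes. None of the 7 passed, 6 were above 0, and the median was 0.10. That median had no stable direction: it was -0.02 after renewed quantile normalization, 0.00 with array weights and 0.16 without wild-type array 1. At an unadjusted p under 0.05 the count was also 0. Mitochondrial L21 (RPL21M, 253549_at) read 6.15, 5.81 and 5.13 in wild type and 6.13, 6.26 and 6.26 in the mutant. The wild-type arrays spread over more than 1 log2 unit, the third being lowest, and the change of 0.52 (95% interval -0.04 to 1.08, adjusted p = 0.34) was 0.23 without that array. S2 (RPS2, 259196_at) had a change of 0.21 (-0.10 to 0.53) and S14 (AT2G34520) one of 0.10 (-0.13 to 0.33). S12, part of the decoding centre in bacteria, was the only mitochondrial title below 0. It read 4.79, 4.77 and 4.64 in wild type and 4.75, 4.29 and 4.29 in the mutant, a change of -0.29 (adjusted p = 0.376), and its probe set 263502_s_at is assigned to both rps12 and AT2G07675. For S12 the authors' deposited table gives a log2 ratio of -0.02. The remaining mitochondrial titles, S29, S19 and L51/S25, had changes of 0.10, 0.07 and 0.03 and did not pass. The difference between plastid and mitochondrial titles was not tested.

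Of the 6 titles with no compartment, the 2 already described were called higher. L18 (AT3G20230) had a change of 0.59 (95% interval 0.12 to 1.07, adjusted p = 0.204). AT5G16200, titled only as 50S-related, read 5.31, 4.83 and 4.89 in wild type and 5.62, 5.43 and 5.71 in the mutant (0.58, adjusted p = 0.112), and passed when wild-type array 1 was left out, with 0.0417. Its log2 ratio in the authors' deposited table is 0.33. AT4G23620 and the S18 gene AT1G07210 had changes of 0.22 and 0.06. By subunit, 3 of 17 small-subunit and 3 of 13 large-subunit members were called higher, beside 1.93% of all probe sets, with median changes of 0.25 and 0.45. Without wild-type array 3 these medians were 0.14 and 0.37. Subunit and compartment are mixed in these figures, since most mitochondrial titles are small-subunit titles. Among plastid titles alone the median was 0.37 for the 9 small-subunit and 0.37 for the 9 large-subunit members. Without wild-type array 3 the plastid medians were 0.30 and 0.40. The difference between subunits was not tested. The small-subunit calls numbered 1, 1 and 0 without mutant arrays 1, 2 and 3, and 2, 1 and 5 without wild-type arrays 1, 2 and 3. The large-subunit calls numbered 0 without any 1 of the mutant arrays, and 3, 2 and 3 without wild-type arrays 1, 2 and 3.

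On each array the members' deviation from their own mean over the 6 arrays gives the pattern by sample. For the 19 plastid titles the median deviation was -0.13, -0.05 and -0.29 on the wild-type arrays and 0.14, 0.25 and 0.16 on the mutant arrays. The mutant arrays stood above the wild-type arrays here. For the 7 mitochondrial titles it was 0.11, 0.10 and -0.30 in wild type and 0.15, 0.07 and 0.00 in the mutant, so that only the third wild-type array stood apart. Over all probe sets that array was at -0.11 and the others between 0.01 and 0.03.

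**Figure D4:**
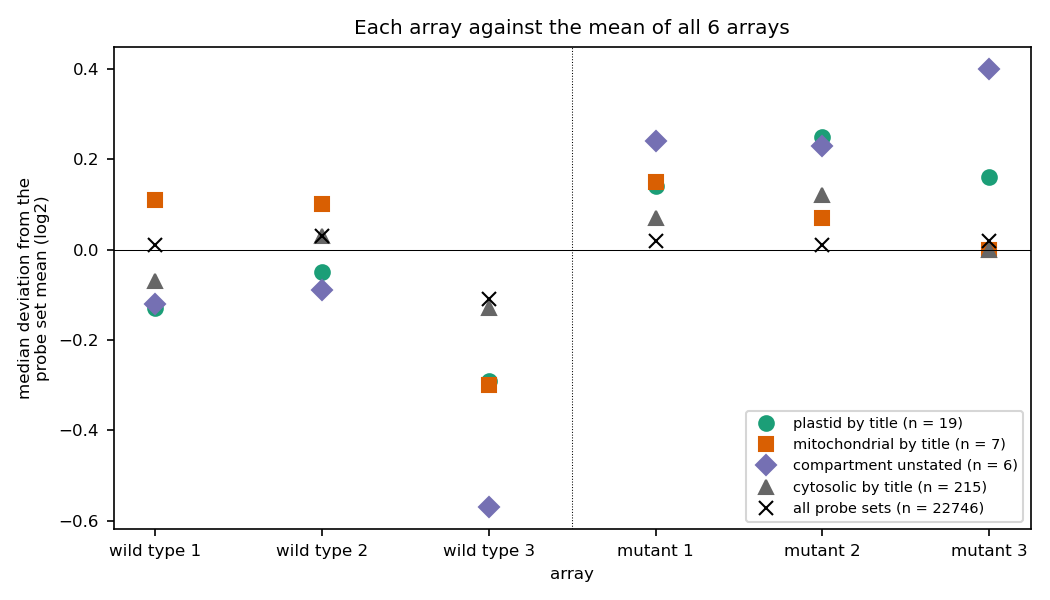
Median deviation of a group's probe sets from their own means over the 6 arrays (vertical axis, log2) on each array (horizontal axis), with unstated titles as diamonds, cytosolic titles as triangles and all probe sets as crosses. Plastid titles (green circles) are below 0 on the 3 wild-type arrays and above 0 on the 3 mutant arrays, and mitochondrial titles (orange squares) are well below 0 on the third wild-type array only.

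Ribosomal protein titles that the rule did not take give the frame for these values. Of 215 cytosolic titles 4 (1.86%) were called higher, close to the 1.93% of all probe sets, and none lower. A change above 0 was found for 79.5% of them, against 54.9% of all probe sets, and their median was 0.13. The 4 were L12 (AT5G60670), P0 (AT2G40010), S17 (AT3G10610) and L19 (AT3G16780), named after their values were seen, with changes of 0.62 to 0.89. Cytosolic titles are brighter still, with a median level at percentile 95.3. The 77 ribosomal protein titles that name neither kind of ribosome had 6 called higher (7.79%, against 1.93% of all probe sets), none lower and a median change of 0.16, which was 0.09 without wild-type array 3 and 0.24 without wild-type array 2. Among these 77 were L3 (AT2G43030) and L5 (AT4G01310), which had been put forward as markers of the organelle set. Their titles name no compartment, so the title rule left them out, which does not show that they work outside organelles. The 77 may therefore hold further organelle proteins and are not a set free of them. L3 read 8.99, 9.24 and 9.09 in wild type and 9.62, 9.68 and 9.72 in the mutant (0.56, adjusted p = 0.0396). L5 read 7.28, 7.42 and 7.12 in wild type and 7.79, 7.88 and 7.97 in the mutant (0.61, adjusted p = 0.0424). With 1 array left out, L3 and L5 each passed in 1 of 6 fits. All mutant arrays stood above all wild-type arrays for 62 of the 215 cytosolic titles and for 23 of the 77, against 14.9% of all probe sets. They stood below for 10 and 3, against 9.16%. The 3 groups of titles were not tested against each other. The cytosolic calls numbered 0 without any 1 of the mutant arrays, and 1, 0 and 9 without wild-type arrays 1, 2 and 3. Among the 77 titles the calls numbered 1, 1 and 0 without mutant arrays 1, 2 and 3, and 3, 3 and 13 without wild-type arrays 1, 2 and 3.

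**Figure D5:**
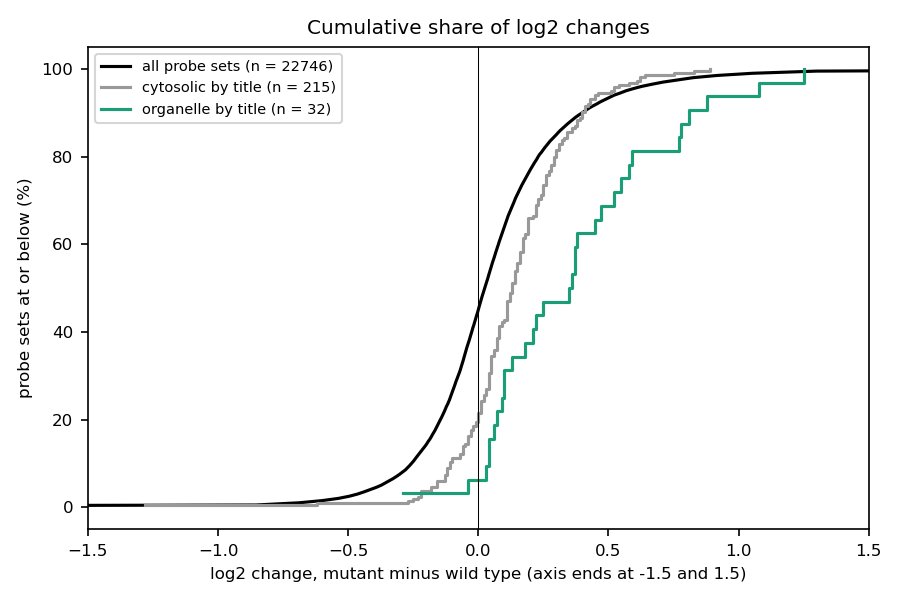
Cumulative share of probe sets (vertical axis, percent) at or below each log2 change (horizontal axis, which ends before the most extreme changes) for the 32 organelle titles (green), the 215 cytosolic titles (grey) and all 22746 probe sets (black). The medians are 0.36, 0.13 and 0.02.

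Ribosomal protein genes encoded in the plastid itself could be read from 20 further probe sets that the platform's gene table names. None was called in either direction in limma, and 4 had an unadjusted p under 0.05. Of these, rpl32, rps2 and rps19 were above 0, and 1 of the rps12 probe sets (244939_at) was at -0.42, with all mutant arrays below the wild-type arrays, while another (244940_at) was at 0.15. The largest of the changes with groups that did not overlap was that of rpl32, which read 8.34, 7.71 and 8.35 in wild type and 8.59, 8.70 and 8.71 in the mutant (0.53, adjusted p = 0.197). The median of the 20 was 0.17 and 15 were above 0. Without wild-type array 1 the median was 0.31 and 1 probe set, rps16, was called higher, and without wild-type array 2 the median was 0.03. The plastid-encoded genes named here were picked after their values were seen. Labelling with the one-cycle kit starts from poly(A) tails, which plastid messages largely lack, so these readings need not follow their abundance.

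Genes that act with these ribosomes were few among the matched probe sets. Listed genes that could not be matched may still have a probe set, so they give no result here. Of 13 listed organelle translation factors 5 were matched and none passed. The smallest p-values belonged to the initiation factor genes AT2G24060 (IF-3 family), with a change of 0.54 (adjusted p = 0.171), and AT4G11175 (chloroplast IF-1), with 0.28 (adjusted p = 0.289). Of 10 factors of plastid ribosome assembly 4 were matched and none passed, and the GTPase gene AT5G66470 with 0.27 and the RimM family gene AT5G46420 with 0.42 had adjusted p-values of 0.246 and 0.377. Of 22 listed genes of plastid transcription and its regulators 3 were matched, again with no call, SIGE at -0.07 and the organelle RNA polymerase gene AT5G15700 at -0.07. At unadjusted p under 0.05 these 3 lists held 2, 1 and 0 genes.

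In the authors' deposited table, which holds their own limma comparison, 4 of the 32 members were higher at a false discovery rate under 0.05, where 1.56% of all probe sets were. These 4 were AT5G24490 (log2 ratio 1.21), L4 (0.88), L21 (0.75) and CS13 (1.11), all among the 6. For S1 the authors' deposited table gives 0.70 with a false discovery rate of 0.0506, and for L9 0.82 with 0.0779.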

How the data were processed

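Total RNA from 6 seed samples was hybridised to Affymetrix arrays. RMA and limma are the tools listed, without versions, per the submitters' processing notes. The deposited values are log2 levels per probe set and array, made by the authors. The settings of RMA are not given in the sources used here. The authors' deposited table adds log2 ratios and limma p-values with false discovery rates, per the file headers. Its 6 columns of values per array were not used, and its titles chose the members.

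Here limma 3.58.1 (R 4.3.3) estimated mutant minus wild type from these values by lmFit and eBayes, after 64 control probe sets were left out. Adjustment followed Benjamini-Hochberg over 22746 probe sets (threshold 0.05). The number of arrays limits the precision. The fit was tested on simulated data.

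Genes came from the platform's gene table (9 members) or from RefSeq names, assembly TAIR10.1, that match the title (8 members). List genes were also matched through the authors' gene symbols. No build is named in the files, so no coordinates are given.

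Members, lists and tests were chosen with earlier results of these data known. Named are all called members, members by p-value up to 25, the 4 brightest and the 4 dimmest, the markers, AGL67 and, per list, called genes or the 2 smallest p-values. Exceptions are marked. The other members are given by their values in passing.

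Alternatives were a replicate block, each array left out, renewed quantile normalization, median centring, an intensity trend, robust estimation, array weights, a filter on dim probe sets, leaving out shared probe sets and the authors' table.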

Additional observations from a re-analysis of the deposited data

How the results depend on the processing

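The deviations of same-numbered arrays from their group means correlated at -0.158, 0.145 and 0.217 for numbers 1, 2 and 3. With 3 arrays in a group these correlations cannot show whether same-numbered arrays share more than the number, which the labels do not state. The count of 6 members called higher was 3 with the replicate block, which kept AT5G24490, CS13 and L4, and 11 with array weights, and ranged from 0 to 8 with 1 array left out. The share of all probe sets called higher moved the same way, from 1.93% to 1.46% with the block, 4.2% with array weights and 0.299% to 3.86% with 1 array left out. The members called higher numbered 5 to 7 under the intensity trend, robust estimation, both scalings, the dim filter and without shared probe sets, and 4 in the authors' deposited table. The count of members called lower was 0 in every setting run. The median change of 0.36 was 0.25 with array weights, which gave the third wild-type array the least weight, and ranged from 0.24 to 0.37 with 1 array left out. Over all probe sets the median was -0.01 both with array weights and without the third wild-type array. The plastid median lay between 0.29 and 0.44 over all settings, and the mitochondrial median between -0.02 (quantile normalization) and 0.16. AGL67 passed in every setting. Of the named members, L15 turned to -0.02 after quantile normalization, and L28 to -0.03 with median centring, to values between -0.05 and 0.13 with 1 array left out (-0.05 without the third mutant array) and to -0.02 in the authors' deposited table. With all 6 arrays, the smallest change called among the 32 members was 0.77 in the limma fit the report uses, and 0.41 with array weights. Outside the members the limma fit also called smaller changes, such as 0.56 for L3.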
